A study of Mus musculus with 8 samples.

Results

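NF-kB subunits, inhibitors and feedback targets were measured in CDPs (DC-restricted progenitors) of the BM, compared between mice on HFD and on CF. The members were the rows of the authors' gene count table whose Ensembl identifier carries 1 of 10 symbols in GENCODE vM21. These were Nfkb1, Nfkb2, Nfkbia, Nfkbid, Nfkbie, Nfkbiz, Tnfaip3, Traf1, Gadd45b and Cd83. All 10 had a row, of 16119 genes in the table, and all 10 passed the filter on low counts, which left 15837 genes for testing. The comparison of the diets asked whether the transcripts of this pathway differed in CDPs of obese mice.

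NF-kB is a family of dimeric transcription factors that inhibitor proteins (IkB) hold in the cytoplasm. Receptors of the TNF, IL-1 and Toll-like families signal through adaptors to the IKK kinase, which marks IkB for degradation and lets the dimers enter the nucleus. Among the targets that they then switch on are their own inhibitors and precursor subunits, so transcripts such as Nfkbia and Tnfaip3 are widely used as a readout of recent pathway activity. In DCs the pathway is known for driving maturation, when the surface protein CD83 appears.

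CDPs were sorted by flow cytometry as Lin-, c-Kit intermediate, Sca-1 low, CD115+ and Flt3+ cells, with about 50000 cells for each library. The 4 HFD libraries came from C57BL/6 mice with diet-induced obesity (genotype label DIO), given a diet with 60 kcal% fat for 16 weeks according to the labels. The 4 CF libraries came from C57BL/6 control mice (DIO-Control), matched for age, on chow with 10 kcal% fat. The methods describe the mice of both diets as male C57BL/6J animals bought at 16 weeks of age, and the number of mice behind each library is not given in the sources used here. P-values therefore measure the spread between these libraries. In bulk RNA, fewer cells of a type and less RNA per cell cannot be told apart.

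Total counts per library ranged between 32575696 and 48409689 in CF and between 28203651 and 38969160 in HFD. The 10 members together held 7531 to 8785 counts per library in HFD and 8574 to 9553 in CF. As a share of all counts on protein-coding genes, this was 0.0552% to 0.0679% in HFD and 0.0670% to 0.0728% in CF. Short non-coding genes took 8.50% to 13.6% of all counts in HFD and 21.7% to 33.9% in CF. Of the markers of the sort, Kit (34.2 to 53.6 CPM), Flt3 (88.8 to 378 CPM) and Csf1r, which encodes CD115 (79.4 to 133 CPM), were present in every library, while Ly6a, which encodes Sca-1, was at 1.37 to 3.25 CPM. HFD replicate 1 stood apart from the other 3 HFD libraries. It had the lowest Flt3 value, and the summed level of 12 neutrophil genes was 19821 CPM there, against 938 to 3473 CPM in the other HFD libraries and 1917 to 6440 CPM in CF. Results are therefore also given without HFD replicate 1.

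Promoter sequences are shown first, since NF-kB dimers bind DNA at kB sites, which many of its feedback targets carry near their start. RefSeq promoters on GRCm38.p6, from 250 bases before to 50 bases after each start, were found for 7 of the 10 members (12 promoters), all but Cd83, Nfkb1 and Nfkbiz. Both strands were searched for the kB consensus of 10 bases, and overlapping matches were counted. It was found in 5 members, Nfkb2, Nfkbia, Nfkbid, Nfkbie and Tnfaip3, in 7 of the 12 promoters. Over all 27025 genes with a RefSeq promoter it was found in 5.14% (4.51% of 32851 promoters). Nfkbid and Tnfaip3 also have promoters without a match, among them the Nfkbid promoter nearest the GENCODE start of the gene. The members were chosen as genes of this pathway, so these shares are a description. A match is a match of letters and does not show binding.

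Nfkbia, the textbook case of feedback, is shown by the 250 bases before its start, at chr12:55492648-55492897 on the minus strand, with a match at bases -29 to -20 that reads on the opposite strand. For 4 other members the 30 bases around a match are given, at chr17:45555584-45555613 (plus strand, Nfkbie), chr10:19015411-19015440 (minus strand, Tnfaip3), chr7:30422170-30422199 (plus strand, Nfkbid) and chr19:46304689-46304718 (plus strand, Nfkb2, overlapping matches). The Tnfaip3, Nfkbid and Nfkb2 windows lie inside the span of the gene in GENCODE, before another annotated start. All are written 5′ to 3′ on the strand of the gene, with the matched bases in capitals.
Nfkbia: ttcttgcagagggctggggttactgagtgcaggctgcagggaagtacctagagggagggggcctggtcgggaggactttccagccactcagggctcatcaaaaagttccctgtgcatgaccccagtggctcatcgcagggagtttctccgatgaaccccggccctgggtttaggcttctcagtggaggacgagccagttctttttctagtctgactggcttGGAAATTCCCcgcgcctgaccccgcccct
Nfkbie: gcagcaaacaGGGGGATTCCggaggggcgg
Tnfaip3: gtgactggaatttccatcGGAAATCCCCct
Nfkbid: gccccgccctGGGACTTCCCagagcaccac
Nfkb2: gatcgtcacGGGAATTCCCCccctcggggg

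Traf1 and Gadd45b, the members with the widest difference between the diets among those with a promoter, held no match in this window. Their upstream bases are given for comparison, 250 bases at chr2:34961773-34962022 (minus strand) for Traf1 and 232 bases at chr10:80929841-80930072 (plus strand) for Gadd45b. No capitals appear in them, which says only that these letters are absent from the windows.
Traf1: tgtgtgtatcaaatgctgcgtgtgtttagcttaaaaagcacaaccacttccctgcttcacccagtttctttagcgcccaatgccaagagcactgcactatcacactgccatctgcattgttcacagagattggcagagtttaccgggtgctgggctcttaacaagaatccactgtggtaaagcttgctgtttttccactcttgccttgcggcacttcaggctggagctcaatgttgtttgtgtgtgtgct
Gadd45b: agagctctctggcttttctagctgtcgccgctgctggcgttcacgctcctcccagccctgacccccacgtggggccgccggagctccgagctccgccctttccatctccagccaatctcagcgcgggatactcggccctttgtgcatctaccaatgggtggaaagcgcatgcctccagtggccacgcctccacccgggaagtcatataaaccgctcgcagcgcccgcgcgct

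Levels were lower in HFD than in CF for 10 of 10 genes, though Nfkb1, Nfkb2, Nfkbid and Tnfaip3 were higher when counts were scaled by library size alone. Of all genes tested, 40.3% had a log2 fold change below 0. The median log2 fold change of the members was -0.20, against 0.05 over all genes. Scaling by library size alone moved the median of all genes to 0.25 and that of the members to -0.01, and under both scalings all 10 members lay below the median of all genes. Since the members were chosen with results of these data known, these counts are a description without a test.

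None of the 10 members was called by edgeR at an adjusted p below 0.05, a threshold that 0.423% of all genes (67 genes) passed as lower in HFD. At an unadjusted p below 0.05, 3 members were lower (Traf1, Gadd45b and Cd83), as were 5.34% of all genes. In 1 member, Cd83, the 4 HFD values did not overlap the 4 CF values, as in 3.58% of all genes in this direction. DESeq2, limma voom and a linear model for each gene also called 0 members, where they called 3.18%, 0.442% and 0% of all genes lower in that order. Each had the same number, 3, of members lower at an unadjusted p below 0.05, beside 5.95%, 5.74% and 5.11% of all genes. Voom with sample quality weights called 1 member lower, Gadd45b, beside 1.64% of all genes. With protein-coding genes alone in edgeR, Traf1, Gadd45b and Cd83 were again lower at an unadjusted p below 0.05, beside 2.14% of the genes tested. Their adjusted p were then 0.87, 0.82 and 0.83 in that order (edgeR). The plot of levels by library shows the values on which these counts rest.

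**Figure D1:**
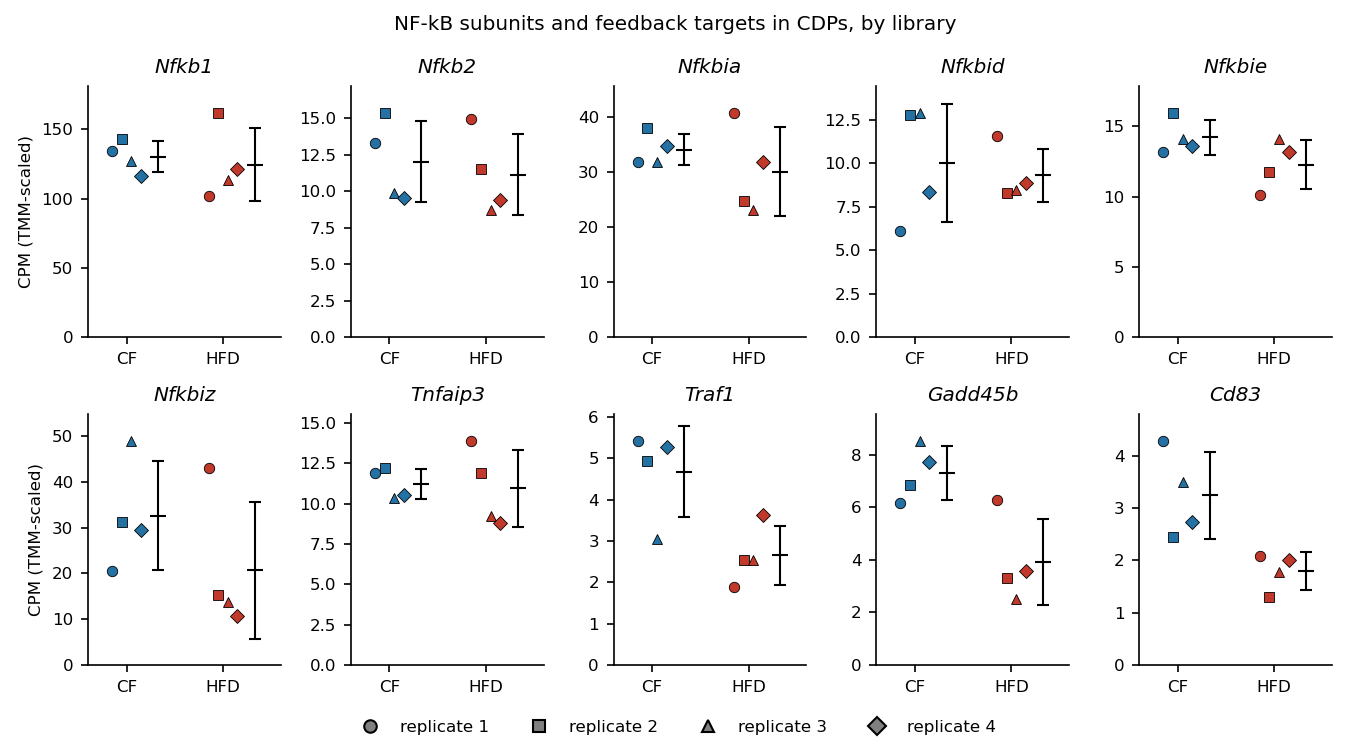
Levels of the 10 members (TMM-scaled CPM, axes from 0) in the 4 CF libraries (blue) and the 4 HFD libraries (red), with marker shapes for the replicate numbers and the mean ± SD of each diet in black. Cd83 is the member whose diets do not overlap, and HFD replicate 1 (circle) lies above the other HFD libraries in 7 members, among them Nfkbiz at 43.0 CPM and Gadd45b at 6.29 CPM.

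Neither precursor subunit passed the test. Nfkb1, the precursor of a DNA-binding subunit of the canonical dimer, lies at chr3:135584655-135691547 on the minus strand and had 26 exon blocks. Its values in replicates 1 to 4 were 102, 162, 113 and 121 CPM in HFD and 134, 143, 127 and 116 CPM in CF. The highest value of all 8 libraries, in HFD replicate 2, and the lowest, in HFD replicate 1, were both in HFD. CF averaged 130 ± 11.2 CPM and HFD 124 ± 26.2 CPM (SD, n = 4 each). This gave a log2 fold change of -0.06 with a 95% interval of -0.41 to 0.29 (adjusted p = 0.96, edgeR).

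Nfkb2 encodes the precursor of the non-canonical pathway, in which the dimer partner is RelB. It lies at chr19:46304320-46312385 on the plus strand. Values were 14.9, 11.5, 8.71 and 9.42 CPM in HFD and 13.3, 15.4, 9.89 and 9.54 CPM in CF, so that both diets spanned nearly the same range. The log2 fold change was -0.11 with an interval of -0.61 to 0.39 (adjusted p = 0.95, edgeR). Exons of Nfkb2 share 299 bases with Psd on the opposite strand, which is also in the table, and 531 bases with the non-coding AC114539.1 on that strand. Whether the counting used strand is not given in the sources used here. The other 9 members shared no exon bases with another gene.

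None of the 4 inhibitors of the IkB family passed the test with all libraries. Nfkbia encodes the IkB that is made again soonest after activation, and it lies at chr12:55489410-55492647 on the minus strand. Its values were 40.8, 24.7, 23.1 and 31.8 CPM in HFD and 31.9, 37.9, 31.9 and 34.7 CPM in CF. HFD replicate 1 was the highest of the 8 libraries, while the other 3 HFD libraries lay below every CF library, replicate 4 only narrowly. With all 8 libraries the log2 fold change was -0.18 with an interval of -0.59 to 0.23 (adjusted p = 0.88, edgeR), and it was -0.36 without HFD replicate 1 (adjusted p = 0.25, edgeR).

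Nfkbie encodes another cytoplasmic IkB, at chr17:45555703-45563169 on the plus strand. HFD values of 10.1, 11.8, 14.1 and 13.2 CPM stood against CF values of 13.2, 16.0, 14.1 and 13.6 CPM. Here HFD replicate 1 was the lowest library, and the log2 fold change of -0.21 had the narrowest interval of all members, -0.51 to 0.09 (adjusted p = 0.78, edgeR). Nfkbid encodes a nuclear IkB, at chr7:30421732-30428746 on the plus strand. Values of 11.6, 8.31, 8.45 and 8.88 CPM in HFD lay inside the range of the CF values of 6.07, 12.8, 12.9 and 8.34 CPM. HFD minus CF was -0.11 on the log2 scale, with an interval of -0.68 to 0.46 (adjusted p = 0.96, edgeR).

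Nfkbiz, a nuclear IkB that is induced by Toll-like and IL-1 receptors and co-activates secondary targets, varied most between libraries. It lies at chr16:55811375-55838899 on the minus strand. Values were 43.0, 15.3, 13.7 and 10.8 CPM in HFD and 20.5, 31.3, 49.0 and 29.6 CPM in CF. The diets overlapped through HFD replicate 1 alone, since the other 3 HFD libraries lay below every CF library. CF averaged 32.6 ± 11.9 CPM and HFD 20.7 ± 15.0 CPM (SD, n = 4 each). The log2 fold change of -0.66 had the widest interval of the members, -1.70 to 0.39 (adjusted p = 0.81, edgeR). Without HFD replicate 1 it was -1.30 (adjusted p = 0.071, edgeR).

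Tnfaip3 encodes a ubiquitin-editing enzyme that switches off TNF signalling, and lies at chr10:19000910-19015657 on the minus strand. Its values were 13.9, 11.9, 9.23 and 8.81 CPM in HFD and 11.9, 12.2, 10.3 and 10.5 CPM in CF. All CF values lay within the HFD range. The log2 fold change of -0.04 was the nearest to 0 of all members, with an interval of -0.41 to 0.34 (adjusted p = 0.98, edgeR).

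In the edgeR fit of diet alone with all libraries, the widest differences were those of Gadd45b, Cd83 and Traf1. Nfkbiz had the widest difference without HFD replicate 1 (-1.30, edgeR) and in voom with quality weights (-1.27). Gadd45b encodes a stress sensor that is induced through NF-kB and restrains JNK signalling, and lies at chr10:80930073-80932204 on the plus strand. Its values were 6.29, 3.30, 2.49 and 3.59 CPM in HFD and 6.18, 6.84, 8.53 and 7.72 CPM in CF. Only HFD replicate 1 reached into the CF range, just above CF replicate 1. CF averaged 7.32 ± 1.03 CPM and HFD 3.92 ± 1.65 CPM (SD, n = 4 each). On the log2 scale HFD minus CF was -0.90 with an SE of 0.28 and an interval of -1.53 to -0.27 (adjusted p = 0.27, edgeR). In an exact two-sided permutation test over the 70 draws of libraries, p was 0.057, where 0.029 is the smallest p that the design allows.

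Cd83, the marker of DC maturation, lies at chr13:43784775-43803132 on the plus strand. It was at 2.09, 1.29, 1.78 and 2.01 CPM in HFD and at 4.29, 2.45, 3.50 and 2.73 CPM in CF, so that every HFD library lay below every CF library. These values rested on 41 to 166 counts per library. On the log2 scale the difference was -0.85 with an SE of 0.25 and an interval of -1.42 to -0.28 (adjusted p = 0.24, edgeR), and the exact two-sided permutation test gave p = 0.029, the smallest that it can give.

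Traf1 encodes an adaptor of TNF receptors, at chr2:34941750-34961772 on the minus strand, and had 59 to 210 counts per library. Values were 1.89, 2.55, 2.54 and 3.62 CPM in HFD and 5.43, 4.93, 3.05 and 5.28 CPM in CF. The diets overlapped through HFD replicate 4 and CF replicate 3. HFD minus CF was -0.82 on the log2 scale with an SE of 0.26 and an interval of -1.41 to -0.23 (adjusted p = 0.30, edgeR), and the exact two-sided permutation test gave p = 0.057. HFD replicate 1 was the lowest library for Traf1, in contrast to Gadd45b.

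**Figure D2:**
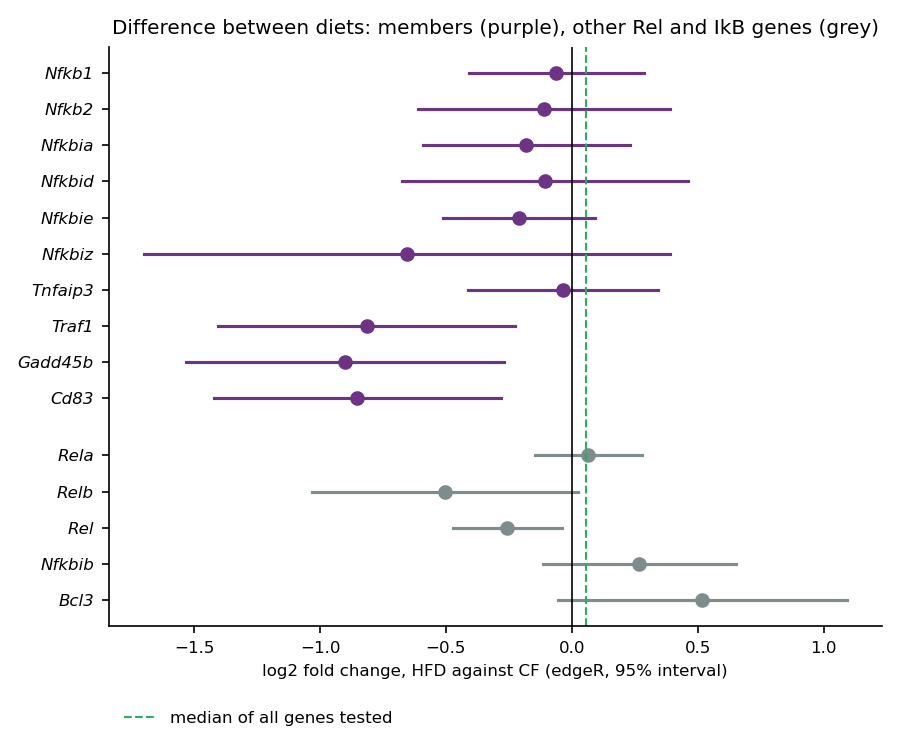
Log2 fold change of HFD against CF (edgeR, all 8 libraries) with 95% intervals for the 10 members (purple) and 5 further Rel and IkB genes (grey), and the median of all genes tested (dashed, 0.05). The intervals of Traf1, Gadd45b and Cd83 lie below 0, those of the other 7 members include it, and none passed the adjusted threshold. With library size alone as scaling, Nfkb1, Nfkb2, Nfkbid and Tnfaip3 lay above 0.

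Per kilobase of merged exons, mean levels in CF fell in a wide range. Nfkbia was at 21.2 ± 1.78 CPM per kilobase (SD, n = 4) and Nfkb1 at 10.8 ± 0.927 (SD, n = 4), and neither mean ± SD overlapped the next. Nfkbiz (6.50 ± 2.38), Nfkbie (4.67 ± 0.402), Gadd45b (4.60 ± 0.647), Nfkbid (4.27 ± 1.44) and Nfkb2 (2.62 ± 0.612) followed, and each of these overlapped its neighbour in that order. Tnfaip3 (1.55 ± 0.131) and Cd83 (1.26 ± 0.322) overlapped each other, and Traf1 (0.530 ± 0.125) lay below them. In HFD the order was the same except for Gadd45b, which at 2.47 ± 1.04 CPM per kilobase (SD, n = 4) came after Nfkbid at 3.96 ± 0.650 (SD, n = 4).

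The other Rel and IkB genes were compared by the same fit. Rela, the transactivating partner in the canonical dimer, had 23.2 to 24.7 CPM in HFD and 20.7 to 24.8 CPM in CF, a log2 fold change of 0.07 (adjusted p = 0.93, edgeR). Relb, the partner of the Nfkb2 product, had 1.73 to 2.47 CPM in HFD and 2.27 to 3.61 CPM in CF, a log2 fold change of -0.50 (adjusted p = 0.61, edgeR). Rel encodes the subunit c-Rel, which is prominent in lymphoid and dendritic cells. Its values of 52.6, 61.1, 56.7 and 50.6 CPM in HFD lay below all CF values, which were 63.1, 70.8, 63.0 and 67.0 CPM. For Rel the log2 fold change was -0.26, with an interval of -0.47 to -0.04 (adjusted p = 0.44, edgeR), and the exact two-sided permutation test gave p = 0.029. Nfkbib, a further cytoplasmic IkB, and Bcl3, a nuclear IkB, had log2 fold changes of 0.27 (adjusted p = 0.78, edgeR) and 0.52 (adjusted p = 0.66, edgeR). Of these 5 genes Rel alone had an unadjusted p below 0.05 in edgeR.

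Upstream of the members, the genes of the signalling chain were spread on both sides of 0 with all libraries. Of 34 genes for IKK and its adaptors, 14 were lower and 20 higher in HFD (3 and 31 with library size alone), with a median log2 fold change of 0.06. Lower at an unadjusted p below 0.05 was 1 gene, where 5.34% of all genes passed. It was Map3k14, the kinase of the non-canonical pathway (log2 fold change -0.43; adjusted p = 0.41, edgeR). Of 13 ubiquitin editors and inhibitors other than Tnfaip3, 5 were lower and 8 higher (1 and 12 with library size alone). Tnip3, a partner of the Tnfaip3 product, differed by -1.07 on values of at most 1.78 CPM (adjusted p = 0.51, edgeR), and Tnip2 by 0.37 (adjusted p = 0.74, edgeR). Without HFD replicate 1, 20 of the 34 genes for IKK and its adaptors were lower and 14 higher, with a median of -0.05 and 5 lower at an unadjusted p below 0.05, and 7 of the 13 editors were lower. No gene of these lists was called lower by edgeR with all libraries or without HFD replicate 1.

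Receptors and ligands had no gene at an unadjusted p below 0.05 in edgeR with all libraries. Of 11 receptors tested, 7 were lower and 4 higher (1 and 10 with library size alone), and the lowest p were those of Cd40 (log2 fold change -0.65; adjusted p = 0.75, edgeR) and Il1rap (-0.13; adjusted p = 0.95, edgeR). Of 5 ligands tested, 3 were lower and 2 higher (2 and 3 with library size alone). Il1b, which encodes a cytokine that activates the pathway, had 23.6, 2.93, 3.91 and 1.97 CPM in HFD and 5.94, 31.3, 41.6 and 33.8 CPM in CF, a difference of -1.80 on the log2 scale (adjusted p = 0.66, edgeR). The high HFD value was that of replicate 1 and the low CF value that of replicate 1. Tnf followed with -0.52 (adjusted p = 0.86, edgeR). Without HFD replicate 1, the median was -0.43 for the receptors, with 4 of 11 lower at an unadjusted p below 0.05 and 0 called. The 5 ligands were then all lower with a median of -1.04, 3 at an unadjusted p below 0.05, and Tnf was called lower (-1.24; adjusted p = 0.048, edgeR). With both replicates 1 left out, Tlr4, named after its value was seen, was called lower among the receptors (-1.42; adjusted p = 0.040, edgeR), and Tnf (-1.34; adjusted p = 0.030, edgeR) and Il1b (-3.60; adjusted p = 0.0011, edgeR) among the ligands. Of the 9 ligands on the list, 4 had no row in the table (Lta, Il1a, Tnfsf11 and Cd40lg).

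A further 28 known targets were looked at, of which 20 could be tested, 7 had no row and 1 was left out by the filter. They were lower in 16 and higher in 4 genes (9 and 11 with library size alone), with a median log2 fold change of -0.20, like that of the members. Of these, 3 were lower at an unadjusted p below 0.05 and 0 higher, all of them chemokine genes. Ccl4 had a log2 fold change of -1.09 (adjusted p = 0.37, edgeR), Ccl3 of -1.02 (adjusted p = 0.43, edgeR) and Ccl5, which was named after its value was seen, of -1.03 (adjusted p = 0.50, edgeR). Without HFD replicate 1, 18 of the 20 were lower and 9 of them had an unadjusted p below 0.05, where 9.76% of all genes were lower at that level. Ptgs2 (-5.42; adjusted p = 0.015, edgeR) and Ier3 (-2.87; adjusted p = 0.017, edgeR), both named after their values were seen, were then called lower, and they were also called with both replicates 1 left out.

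**Figure D3:**
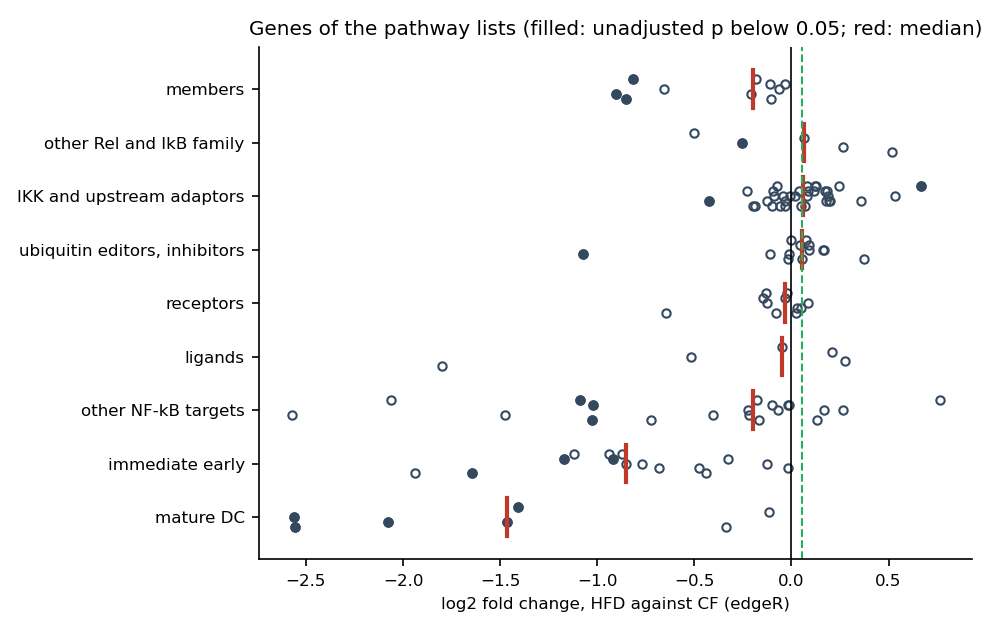
Log2 fold change of HFD against CF (edgeR) for the genes of each list, with 1 circle per gene, filled at an unadjusted p below 0.05, the list median in red and the median of all genes tested as a dashed line. The medians of the members (-0.20), of other targets (-0.20), of immediate early genes (-0.85) and of mature DC genes (-1.46) lie left of 0, and those of the signalling lists lie near it. With library size alone as scaling, the median of all genes was 0.25 and that of other targets 0.01.

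The values of several members moved when HFD replicate 1 was left out. It was the highest HFD library in 7 of the 10 members and the lowest in the other 3, Nfkb1, Nfkbie and Traf1. It was also the highest HFD library in 14 of 15 immediate early genes and in 12 of 12 neutrophil genes. Without it, 9 of 10 members were lower in HFD, with Nfkb1 at 0.02. Then 1 member was called lower, Gadd45b, at -1.22 on the log2 scale (adjusted p = 0.032, edgeR), where 1.05% of all genes were called lower. Lower at an unadjusted p below 0.05 were 5 members, with Nfkbia and Nfkbiz added, where 9.76% of all genes were. The diets did not overlap in 4 members (Nfkbia, Nfkbiz, Gadd45b and Cd83), as in 6.63% of all genes.

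Each other library was also left out in turn. The number of members lower in HFD was 9 without HFD replicate 3, HFD replicate 4 or CF replicate 3 and 7 without CF replicate 2, and no member was called. At an unadjusted p below 0.05 it stayed at 3 members, beside 4.60% to 5.47% of all genes. Diets that did not overlap were found in 2 members without HFD replicate 3, CF replicate 1 or CF replicate 3 and in 3 without HFD replicate 4, and in 1 in the other cases, beside 4.25% to 5.38% of all genes.

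CF replicate 1 was the lowest CF library in 12 of 12 neutrophil genes, so HFD replicate 1 and CF replicate 1 were also both left out, a choice made after seeing the data. With 3 libraries of each diet, 2 members were called lower, Nfkbiz at -1.46 (adjusted p = 0.017, edgeR) and Gadd45b with -1.30 (adjusted p = 0.019, edgeR), beside 2.21% of all genes. At an unadjusted p below 0.05, 4 members were lower beside 10.6% of all genes, and diets did not overlap in 4 members beside 11.7%. In the same libraries 12 of 12 neutrophil genes were lower in HFD and 4 of them were called, where 11 of 12 had been higher with all libraries in the same test, and 11 of 15 immediate early genes were called lower. Their part in the differences of the members was not tested. Traf1 was then at -0.61 (adjusted p = 0.36, edgeR).

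**Figure D4:**
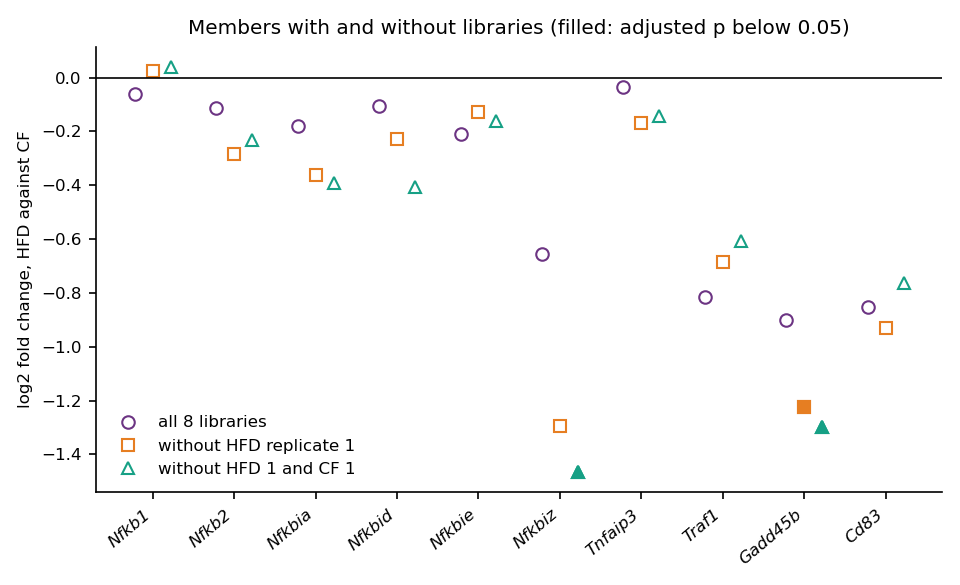
Log2 fold change of HFD against CF for each member with all 8 libraries (circles), without HFD replicate 1 (squares) and without HFD replicate 1 and CF replicate 1 (triangles), filled where the edgeR adjusted p was below 0.05. Nfkbiz moves from -0.66 to -1.30 and -1.46, Gadd45b from -0.90 to -1.22 and -1.30, and Nfkb1 passes above 0. With library size alone as scaling and all 8 libraries, Nfkb2, Nfkbid and Tnfaip3 were also above 0.

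Immediate early genes, heat shock genes and markers of other cells were set beside the members, and their part in the differences was not tested. Some of these lists had the direction of the members, and others were split or had the opposite one. Of 15 immediate early genes, which respond within minutes to signals and to handling, 15 were lower in HFD (13 with library size alone) and 3 of them at an unadjusted p below 0.05. Their summed level was 286 to 965 CPM in HFD, with the highest value in replicate 1, and 642 to 991 CPM in CF. Jun had a log2 fold change of -0.92 (adjusted p = 0.14, edgeR) and Fosb of -1.65 (adjusted p = 0.20, edgeR). Without HFD replicate 1, 10 of the 15 were called lower by edgeR, beside 1.05% of all genes. Of 9 heat shock genes, 5 were lower and 4 higher (4 and 5 with library size alone). Hspa1a (-3.04) and Hspa1b (-2.97), near-identical copies between which reads cannot be told apart safely, were called lower (adjusted p = 0.035 for both, edgeR).

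Cd83 is also a marker of mature DCs, and the other genes of those cells were low in every library. Of 10 genes on that list 7 could be tested, and 7 were lower in HFD (6 with library size alone), 5 at an unadjusted p below 0.05. Their summed level was 7.03 to 14.5 CPM in HFD and 11.7 to 25.2 CPM in CF. Cd83 and this sum did not always go together by library. HFD replicate 1 had the highest Cd83 value of its diet (2.09 CPM) and the lowest sum (7.03 CPM). In CF, replicate 3 had the lowest sum with Cd83 at 3.50 CPM, while replicate 1 was highest in both. Il4i1, Nudt17 and Zmynd15 had no row, and Apol7c was at 0 in a library of HFD. Conventional DC genes summed to 315 to 662 CPM in HFD and 715 to 1248 CPM in CF, with 9 of 12 lower and 4 at an unadjusted p below 0.05. HFD replicate 1 was the lowest library in 10 of the 12, and when it was left out the median of the list went from -0.65 to -0.41 and Itgax, named after its value was seen, was called higher (0.77; adjusted p = 0.0495, edgeR). Of 7 plasmacytoid DC genes tested, 7 were higher in HFD and 6 at an unadjusted p below 0.05, where 3.22% of all genes were higher, and in 3 the diets did not overlap, as in 2.58% of all genes in that direction. Without HFD replicate 1, 6 of the 7 were called higher by edgeR, where 0.214% of all genes were, and in 7 the diets did not overlap, as in 6.4% of all genes. They summed to 103 to 363 CPM in HFD and 84.6 to 131 CPM in CF, and Klk1 had no row. Of 8 B cell genes, 8 were higher in HFD and 5 at an unadjusted p below 0.05, with sums of 434 to 836 CPM in HFD and 317 to 491 CPM in CF.

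The direction of the neutrophil genes with all libraries depended on the fit. In edgeR 11 of 12 were higher in HFD (median 0.34), while 12 of 12 were lower in limma voom (median -0.63), voom with quality weights (-1.30), the linear model (-0.60) and edgeR with the replicate block (-0.99). In edgeR, 12 of 12 were also lower without HFD replicate 1. Erythroid genes were higher in 7 of 7 with all libraries in edgeR, in 3 of 7 with quality weights and in 3 of 7 without HFD replicate 1. No gene of these 2 lists was called by edgeR with all libraries or without HFD replicate 1, and 4 neutrophil genes were called lower with both replicates 1 left out. At an unadjusted p below 0.05 there were 0 with all libraries, and 9 neutrophil genes were lower without HFD replicate 1. Erythroid sums were 87.5 to 521 CPM in HFD and 86.8 to 139 CPM in CF. Monocyte and macrophage genes summed to 172 to 481 CPM in HFD and 371 to 539 CPM in CF, with C1qb at 0 in 3 libraries. The sums were 16.6 to 34.3 CPM in HFD and 21.2 to 28.8 CPM in CF for T and NK cell genes, and 10.5 to 63.0 CPM and 18.9 to 49.9 CPM for mast cell and basophil genes. The plot of members and lists by library sets these lists beside the members.

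**Figure D5:**
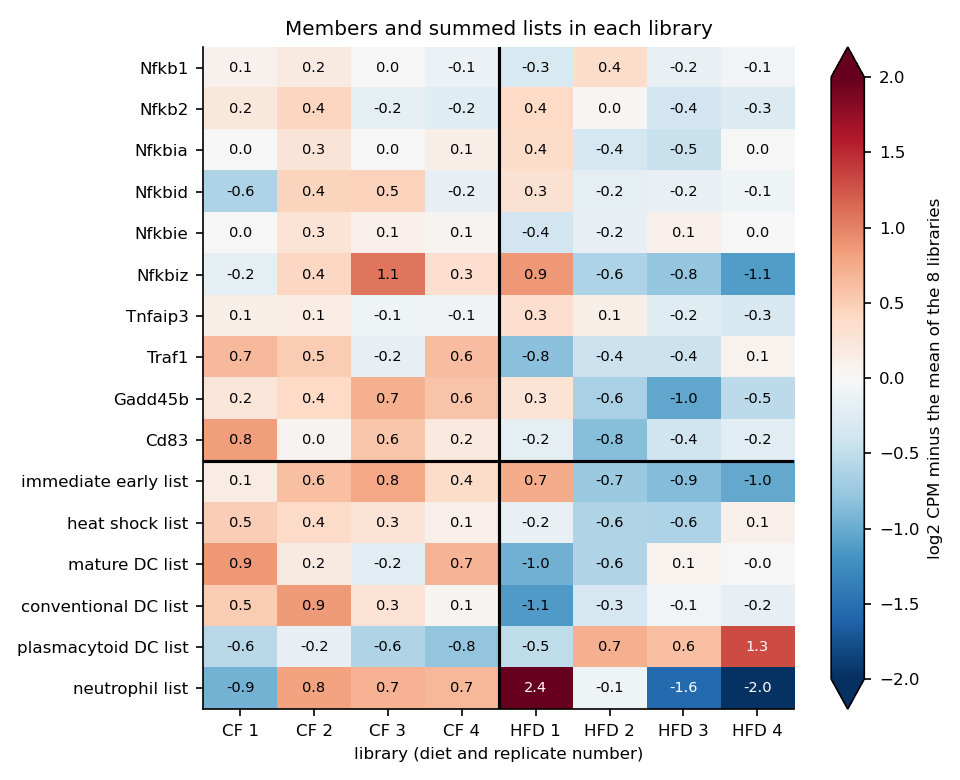
Log2 CPM of each member (top) and log2 of the summed CPM of 6 lists (bottom) in each library, as the difference from the mean of the 8 libraries, with the value written in each cell. In HFD replicate 1 Nfkbiz (0.9), Nfkbia (0.4) and Gadd45b (0.3) are above their mean, as are Nfkb2, Nfkbid and Tnfaip3. The immediate early (0.7) and neutrophil (2.4) lists are above theirs there too. Traf1 (-0.8) is below its mean, as are Nfkb1, Nfkbie, Cd83 and the other lists, among them mature (-1.0) and conventional (-1.1) DC genes.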

How the data were processed

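The authors' deposited raw counts per gene were used as they stand. Per the labels and the study's methods, reads were trimmed (cutadapt), aligned with HISAT2 to GRCm38 and counted with StringTie on GENCODE comprehensive genes from uniquely mapped pairs; tool versions, the annotation release and strandedness are not given in the sources used here. Column names share a prefix and were matched to libraries by their sample number. Names and coordinates came from GENCODE vM21 (16067 of 16119 identifiers matched).

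After filterByExpr and TMM scaling, the robust quasi-likelihood test of edgeR 4.0.16 (R 4.3.3) compared the diets, with Benjamini-Hochberg adjustment over all 15837 genes tested. Exact tests used log2 CPM with a prior count of 2. Alternatives used RLE, library size alone, DESeq2 1.42.0, limma 3.58.1, a linear model on log2(CPM + 1), other filters, protein-coding genes alone, a replicate block and libraries left out. All members, the other Rel and IkB genes, the sort markers and the 2 genes of lowest p in each pathway, immediate early and heat shock list were named. Of the genes so chosen, 1 is not reported here. The members and lists were chosen with earlier results of these data known.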

Additional observations from a re-analysis of the deposited data

Results flagged for a closer look

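Among 66 sets of 4 libraries looked at (each member, each further Rel and IkB gene and each summed list, per diet), 5 held a library whose gap to its nearest neighbour, as a share of the range, was above Dixon's 95% critical value. Chance flags about 1 in 20 such sets.

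Traf1 had a log2 CPM of 1.64 in CF replicate 3, against 2.32 to 2.45 in the other CF libraries. Bcl3 had a log2 CPM of 2.67 in HFD replicate 3, against 3.39 to 3.46 in the other HFD libraries.

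CF replicate 1 was the low library in both of the lists flagged in CF. Its log2 summed CPM was 4.25 for the ligands, against 5.68 to 5.90 in the other CF libraries, and 10.9 for the neutrophil genes, against 12.5 to 12.7. HFD replicate 1 was the high library for the immediate early genes, with a log2 summed CPM of 9.91 against 8.16 to 8.44 in the other HFD libraries.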

How the results depend on the processing

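Called members numbered 0, except 1 with voom sample quality weights, 2 with both replicates 1 left out and 0 to 1 with single libraries left out. Members lower in HFD numbered 10 in most alternatives, 6 with library size alone and 7 to 10 with libraries left out. Diets apart were found in 1 member, in 2 with protein-coding genes alone (Gadd45b added), beside 1.26% of all genes, in 4 with both replicates 1 left out and in 1 to 4 with single libraries left out. Members at an unadjusted p below 0.05 numbered 3 to 5 with single libraries left out, 2 with library size alone (without Traf1), beside 3.86% of all genes, and 4 with quality weights (without Traf1 and with Nfkbia and Nfkbiz), beside 8.32%.

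Genes called over the whole table numbered 67, and 108 with library size alone, 567 with DESeq2, 282 with quality weights, 388 with both replicates 1 left out, and 0 with the linear model, with protein-coding genes alone and with the replicate block (809, 252 and 675 lower at an unadjusted p below 0.05). With single libraries left out they numbered 0 to 200, namely 200 without HFD replicate 1, 154 without CF replicate 4, 1 without HFD replicate 2, 2 without HFD replicate 4 and 0 without any of the others. The cause was not tested.

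Log2 fold changes turned positive with library size alone for Nfkb1 (0.15), Nfkb2 (0.10), Nfkbid (0.083) and Tnfaip3 (0.16), and with both replicates 1 left out for Nfkb1 (0.038). With single libraries left out, Nfkb1 ranged from -0.21 to 0.024, Nfkb2 from -0.28 to 0.028, Nfkbid from -0.29 to 0.037 and Tnfaip3 from -0.17 to 0.038. The kB consensus with any base in its middle 2 positions was found in the same number of members, 5, and in 9.55% of all genes.

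Same-numbered libraries did not deviate together (correlations of -0.44, -0.08, -0.23 and -0.18). These correlations also hold differences in marker genes between libraries, so they cannot decide whether the numbers pair libraries. The sample titles give replicate numbers and no pairing. With the replicate block 0 members were called, 10 were lower and 3 had an unadjusted p below 0.05. Depth was lowest for Cd83, at 41 to 166 counts per library.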
